A study of Drosophila melanogaster with 4 samples.

Results

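The broad domains described here are the stretches of fly chromatin on which acetylation of histone H3 at lysine 18 (H3K18ac) was called without a break over 10 kb or more. They are the 1034 enriched regions of that width among the 8107 enriched regions, here called clusters, in the authors' list for the replicate set. They were chosen by measured values, the width of 10 kb or more and the score above 0 in that list, so their number, width and score are given as a description. The chromatin came from sieved heads of mixed adult *Drosophila melanogaster* of the wild-type Oregon-R strain, grown in population cages. ChIP-seq, the sequencing of DNA fragments bound by an antibody, was done with 2 ChIP libraries (replicates 1 and 2). The 2 input libraries, chromatin without antibody, carry the same strain, stage and tissue and enter only through the authors' calls. No treatment or second genotype is part of the series, and the labels do not say whether the replicates came from separate collections of flies.

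In flies the acetyltransferase CBP, encoded by *nejire*, places H3K18ac. Acetylation removes the positive charge of the lysine, and acetylated lysines are bound by proteins with a bromodomain. The mark is best known from promoters and enhancers of active genes, where it usually forms short peaks. In mammals, long unbroken stretches of active chromatin marks have been described as stretch enhancers or super-enhancers, often near genes that characterise a cell type. Heads contain brain, eye, fat body and muscle, so a domain of the whole tissue can be the sum of different cell types, and this was not tested. Genes inside the domains were not analysed here, because the regions are given on FlyBase release 5 and the gene table at hand belongs to release 6. For the same reason the labelled tissue was not checked against its marker genes.

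The domains were 12.8% of the clusters of the set and held 51.1% of its bases, 21.5 Mb in all. Their median width was 16335 bp. The class of 10 to 20 kb had 675 domains (65.3%) with 43.6% of the domain bases. The class of 20 to 40 kb had 284 domains (27.5%) with 36.0%. The 75 domains of 40 kb or more were 7.25% of the domains and held 20.4% of the bases. The list of replicate 1 on its own had 758 clusters of 10 kb or more, of which 538, 182 and 38 fell in these classes. The list of replicate 2 had 646, of which 459, 159 and 28 fell in them. Clusters of 40 kb or more were thus 5.01% of the broad clusters in replicate 1 and 4.33% in replicate 2, both below the share in the set. The number of reads behind the lists is unknown.

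The limit of 10 kb separates neighbours that look alike. The 3 narrowest domains were 10009, 10023 and 10025 bp wide, with scores of 0.783, 1.13 and 0.713, and all 3 were on 3R. The 3 clusters just under the limit were 9995, 9991 and 9991 bp wide, with scores of 1.10, 0.634 and 0.692, and were on the X, 3R and the X. The score is the authors' value for each region, positive for enrichment, and its scale and log base are not stated.

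Median scores were higher in wide clusters, though not at every step of width. The highest single score of the set, 2.62, belonged to a cluster of 1 to 1.5 kb. The median score in the set was 0.356 for clusters of 1 to 1.5 kb, 0.350 for those of 1.5 to 2.5 kb, 0.458 at 2.5 to 5 kb, 0.587 at 5 to 10 kb and 0.791 for the domains. Within the domains the class medians were 0.760, 0.853 and 0.947 from the narrowest class to the widest. The ranges overlapped widely, from 0.374 to 1.61 at 10 to 20 kb, 0.499 to 1.86 at 20 to 40 kb and 0.584 to 1.60 at 40 kb or more. In finer steps the medians were 0.719 at 10 to 15 kb, 0.793 at 15 to 20 kb, 0.862 at 20 to 30 kb and 0.831 at 30 to 40 kb. They were 0.963 at 40 to 60 kb and 0.911 at 60 kb or more. Width and score had a Spearman correlation of 0.693 across all 8107 clusters and of 0.262 across the 1034 domains. The domains span a range of widths cut at 10 kb, which alone lowers such a value, so the 2 cannot be compared. Inside the classes it was 0.166, 0.0079 and 0.161 in the set from narrow to wide. In the class of 40 kb or more it was 0.324 over 38 clusters of replicate 1 and 0.426 over 28 of replicate 2. Width and score come from the same calls, and clusters are not independent samples. The broad clusters of each replicate list showed the same order of class medians, with 0.954, 1.07 and 1.15 in replicate 1 and 0.907, 0.967 and 1.04 in replicate 2. Only 9 of the 1034 domains scored below the median of all clusters of the set, 0.416.

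**Figure D1:**
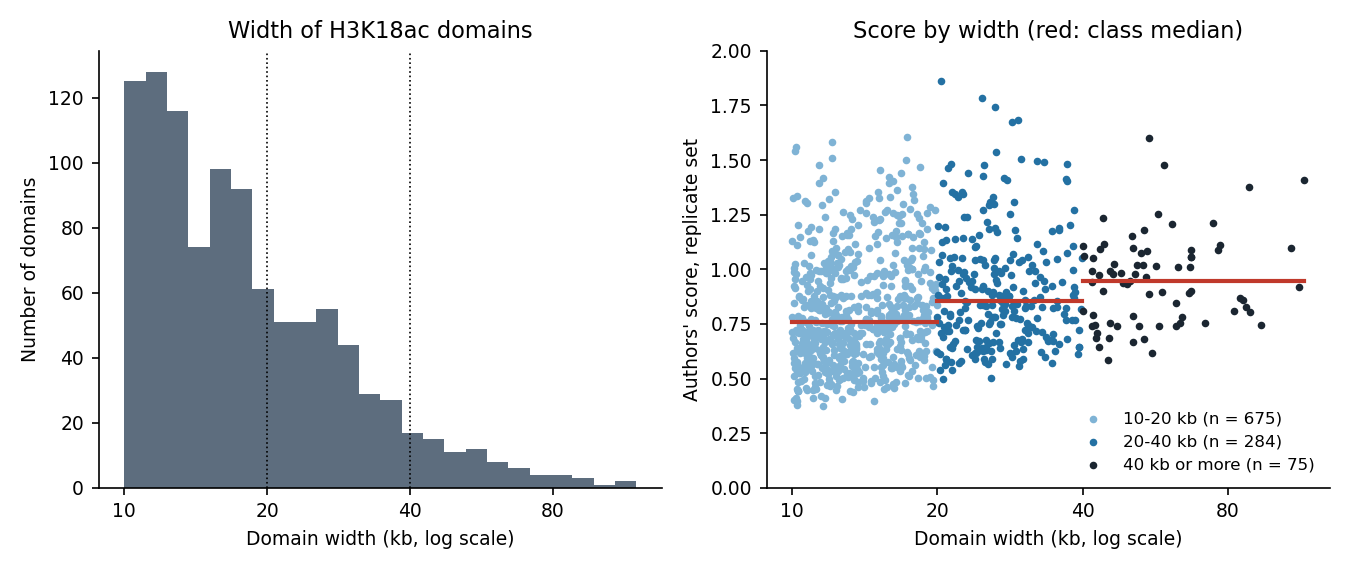
Left, number of domains by width in kb on a log axis, with dotted lines at the class limits of 20 and 40 kb. Right, each domain's score in the replicate set against its width, with class medians of 0.760, 0.853 and 0.947 as red lines; the 3 clouds of points overlap over most of their range.

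Of the 2 domains of highest score in each width class, 4 were unbroken in both replicates. At 10 to 20 kb the highest 2 were on 3R from 3930608 to 3947892 and on the X from 1974056 to 1986138. The first scored 1.61 in the set, and its single cluster scored 1.72 in replicate 1 and 1.57 in replicate 2. The second scored 1.58, 1.70 and 1.53. Each was a single cluster in both replicates that covered at least 97.5% of the domain. At 20 to 40 kb the highest were 2L 6073852 to 6094214, with 1.86 in the set, and 3R 5901910 to 5926708, with 1.78, and both were single clusters in both replicates. At 40 kb or more they were 3R 12030814 to 12085752 (54.9 kb, 1.60) and X 12599330 to 12658186 (58.9 kb, 1.48). The domain on 3R was 1 cluster in replicate 1 and 2 in replicate 2, while that on the X consisted of 4 and 5 clusters.

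The domains of lowest score were divided in both replicates. At 10 to 20 kb they were 2R 9166250 to 9177826, with a score of 0.374, and 2L 7115700 to 7125932, with 0.380. The domain on 2R consisted of 5 clusters that covered 79.4% of it in replicate 1, and of 2 clusters that covered 32.4% in replicate 2. The domain on 2L consisted of 3 clusters in each replicate, which covered 47.4% and 48.9%. At 20 to 40 kb they were 3L 5996818 to 6017406 (0.499) and 2L 13103738 to 13129540 (0.502). Replicate 2 covered 46.7% of the former and 33.9% of the latter, against 66.9% and 93.2% in replicate 1. At 40 kb or more they were 3R 13637598 to 13682654 (0.584) and 3L 22162834 to 22218478 (0.615). The domain on 3R was divided into 7 clusters in each replicate but covered to 88.3% and 92.8%.

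How each domain is divided in the single replicates was examined next. Every domain overlapped at least 1 cluster of replicate 1 and at least 1 of replicate 2. Replicate 1 covered a median of 94.2% of a domain and replicate 2 a median of 88.8%. Counted in bases, 82.5% of the domain sequence lay in clusters of both replicates, 8.70% in replicate 1 only, 4.79% in replicate 2 only and 4.05% in neither. The part in both replicates was 76.6%, 84.8% and 90.8% in the 3 width classes from narrow to wide. Under 50% of the domain was covered in 18 domains in replicate 1 and in 35 in replicate 2, and 3 domains were in both groups. The replicates went into the set, so these values describe the build of the set and are no independent check of it.

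A single replicate cluster filled a minority of the domains. A domain is called whole in a replicate when exactly 1 of its clusters overlaps it and covers at least 90% of it. This held for 402 domains (38.9%) in replicate 1 and 293 (28.3%) in replicate 2, a mean of 33.6% ± 7.45 (SD, n = 2). It was 35.3% ± 8.59 at 10 to 20 kb, 32.9% ± 5.73 at 20 to 40 kb and 21.3% ± 3.77 at 40 kb or more. These SDs hold the offset between the 2 lists and do not measure the steps between classes. From narrow to wide the shares were 41.3%, 37.0% and 24.0% in replicate 1 and 29.2%, 28.9% and 18.7% in replicate 2. For clusters of 5 to 10 kb the share was 29.4% ± 9.27. It was 36.0% in replicate 1 and 22.9% in replicate 2, below that of all domains in both. Of the 1034 domains, 225 (21.8%) were whole in both replicates, 177 in replicate 1 only, 68 in replicate 2 only and 564 (54.5%) in neither.

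Wide domains consisted of more pieces. The mean number of replicate clusters per domain was 1.79 ± 0.0356 at 10 to 20 kb, 2.42 ± 0.271 at 20 to 40 kb and 3.54 ± 0.368 at 40 kb or more (SD, n = 2). Of the 75 widest domains, 28 in replicate 1 and 33 in replicate 2 consisted of 4 or more clusters. Per length, the widest domains had the fewest breaks of the 3 classes in both replicates. There were 0.569 ± 0.0257 breaks per 10 kb in the narrowest class, 0.519 ± 0.100 in the middle class and 0.433 ± 0.0627 in the widest (SD, n = 2). In replicate 2 alone the 2 narrower classes had 0.587 and 0.590. Clusters of 5 to 10 kb had 0.428 ± 0.0118, a value that short regions lower by construction. Replicate 2 divided 322 domains into more pieces than replicate 1 did, replicate 1 divided 224 into more, and 488 had equal numbers. When replicate clusters under 500 bp apart were joined, the share of whole domains rose to 53.8% in replicate 1 and 39.1% in replicate 2.

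**Figure D2:**
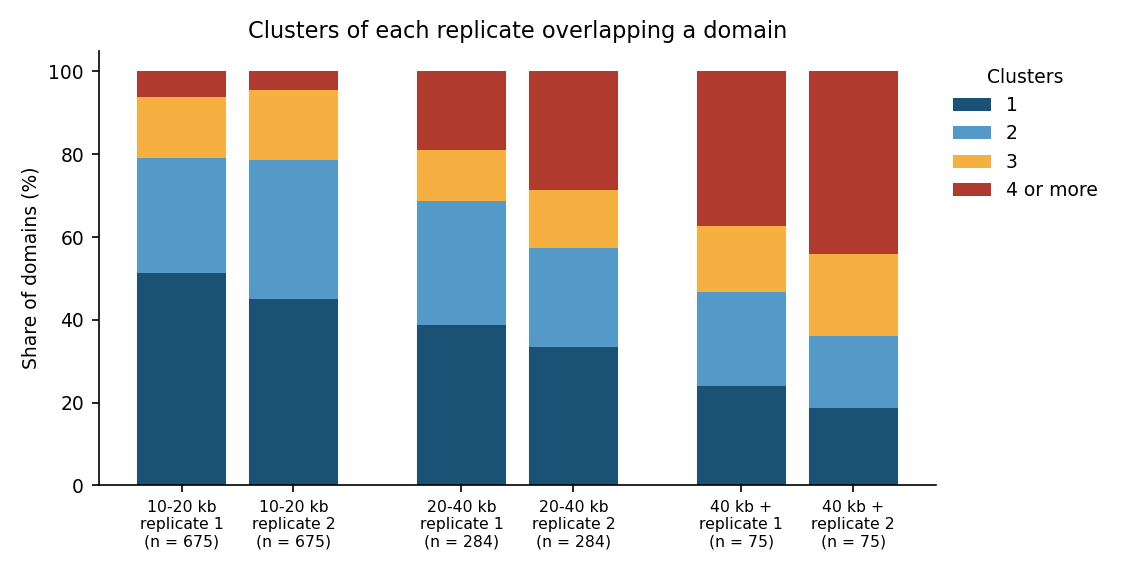
Share of domains (%) that overlap 1, 2, 3 or 4 and more clusters of a replicate, by width class and replicate, with the number of domains under each bar (40 kb + stands for 40 kb or more). Single clusters fall from 51.4% and 45.0% of the narrowest class to 24.0% and 18.7% of the widest.

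Some domains had no broad cluster in either replicate, and most of these were 10 to 20 kb wide. In all, 524 domains (50.7%) overlapped a cluster of 10 kb or more in both replicates, 166 in replicate 1 only, 54 in replicate 2 only and 290 (28.0%) in neither. Those in neither numbered 266 at 10 to 20 kb, 24 at 20 to 40 kb and 0 at 40 kb or more. Replicate clusters mostly end inside the domain, so a domain little wider than 10 kb has hardly room for one of 10 kb. This order of the classes is thus partly fixed by the width limit. Conversely, 755 of the 758 broad clusters of replicate 1 and 644 of the 646 of replicate 2 overlapped a domain. Of the 5 that did not, 4 lay on 2L, 2R and 3R. The other was a cluster of 13.7 kb in replicate 2 on the heterochromatic sequence 3LHet, from 205930 to 219668, which the set broke into 4 clusters of at most 5517 bp. No domain of the set lay on an assembled heterochromatic or unplaced sequence.

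Individual domains show the range. The widest, on 3R from 5694794 to 5809902, was whole in both replicates. Its score was 1.41 in the set, and the clusters that filled it had 1.53 in replicate 1 and 1.33 in replicate 2. The next widest that were whole in both were 2R 14172422 to 14246944 (74.5 kb) and 3L 10218734 to 10285950 (67.2 kb). The former scored 1.21 in the set, with 1.34 and 1.10 in the replicates, and the latter 1.05, 1.06 and 1.07. The widest domains of 2L, 2R, 3L and the X were broken in both replicates. On 3L, 10300910 to 10408904 (108 kb) was split into 2 clusters by replicate 1 and into 3 by replicate 2, which covered 99.4% and 99.1%. On 2R, 17282704 to 17368664 (86.0 kb) consisted of 4 and 7, and on 2L, 4229506 to 4314150 (84.6 kb) of 4 and 5. The widest on the X, 19265134 to 19332226 (67.1 kb), consisted of 5 clusters covering 93.8% in replicate 1 and 9 covering 81.0% in replicate 2.

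The most divided domains, by the number of clusters summed over both replicates, were all on 3L. That arm held 23 of the 75 domains of 40 kb or more. The number of clusters rises with width, so this is no ranking of breaks per length. In the domain from 17086716 to 17180610 (93.9 kb), the widest of its 11 clusters in replicate 1 was 27.2 kb with a score of 1.02, and the widest of its 8 in replicate 2 was 37.1 kb with a score of 0.873. Their other pieces scored between 0.496 and 0.827. The domain from 3514874 to 3586462 (71.6 kb) was divided unequally. Replicate 1 called its first part as 1 cluster of 56.3 kb and then 4 short ones, while replicate 2 had 12 clusters, the widest of 16.6 kb. The domain from 22162834 to 22218478 (55.6 kb) had 9 clusters in replicate 1 and 7 in replicate 2, which covered 78.4% and 75.2% of it. It also held the longest break common to both replicates, 3925 bp from 22190213 to 22194137.

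The least covered domains were short. That on 3R from 18027038 to 18037238 (10.2 kb) had 44.4% of its bases in clusters of replicate 1 and 28.7% in those of replicate 2. On 3R from 19651110 to 19661720 (10.6 kb), replicate 1 had 1 cluster of 1.59 kb, or 15.0% of the domain, and replicate 2 covered 73.0% with 3 clusters. On 3L from 18065770 to 18078454 (12.7 kb) the order was reversed, with 66.5% in replicate 1 and 22.1% in replicate 2. Chromosome 4, a small and largely heterochromatic chromosome, had 3 domains in the set. Its widest, 1000402 to 1018618 (18.2 kb), was a single cluster over 100% of its length in replicate 2 but 3 clusters over 51.1% in replicate 1, with top scores of 0.910 and 0.659. Replicate 1 had 0 clusters of 10 kb or more on that chromosome.

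**Figure D3:**
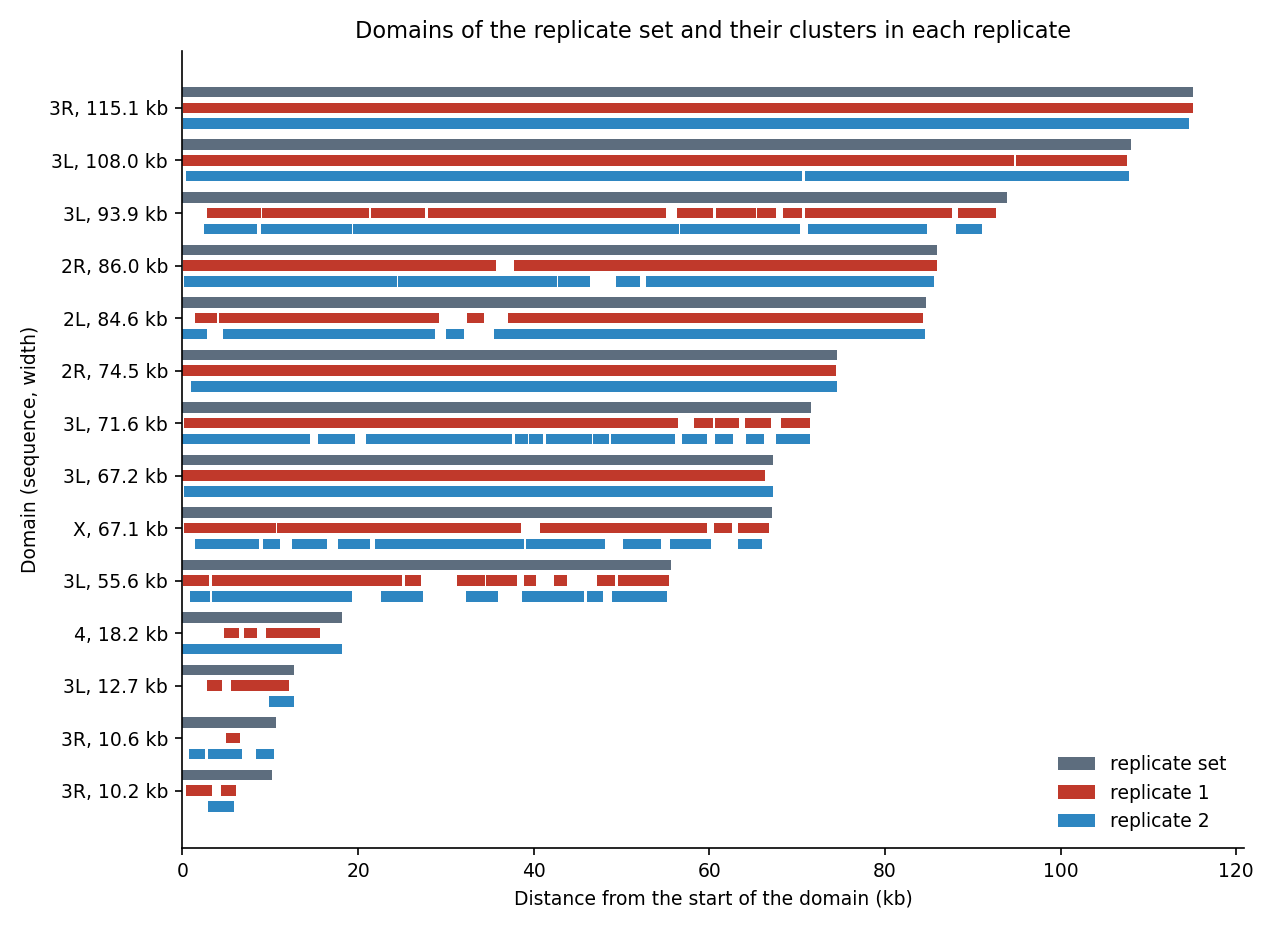
Domains of the replicate set (grey) with the clusters of replicate 1 (red) and replicate 2 (blue) inside them, drawn to scale against the distance in kb from the start of the domain. The 14 domains are the widest of each sequence, the 3 most divided, the 3 widest that are whole in both replicates and the 3 least covered; the 115.1-kb domain on 3R is unbroken in both, while the 10.2-kb domain on 3R is covered to 44.4% and 28.7%.

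Whole domains had higher median scores than divided ones of the same width class. At 10 to 20 kb the median score in the set was 1.07 for the 157 domains whole in both replicates, 0.792 for the 162 whole in 1 and 0.637 for the 356 whole in neither. At 20 to 40 kb these medians were 1.19 (61 domains), 0.938 (65) and 0.724 (158), and at 40 kb or more 1.18 (7), 1.01 (18) and 0.837 (50). The median widths of the groups of 10 to 20 kb lay between 13149 and 13398 bp. At 40 kb or more they were 61295, 50798 and 55246 bp, so these groups were not matched in width. The scores overlapped. At 10 to 20 kb they ran from 0.703 to 1.61 for domains whole in both and from 0.374 to 1.48 for those whole in neither. The score of the set was made from the same libraries as the pieces, so this is a description without a test. The pieces themselves also ranked alike in the 2 libraries. The Spearman correlation of the highest piece score between replicates was 0.855 across the 1034 domains and 0.863 across the 225 that were whole in both. These domains share libraries and are not independent samples. If the scores of both lists share a scale, which was not checked, replicate 1 had the higher top piece in 766 domains and replicate 2 in 268.

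The places at which the replicates broke a domain coincided only in part. Replicate 1 had 1034 breaks, stretches between 2 consecutive clusters in a domain, and replicate 2 had 1217. That the number in replicate 1 equals the number of domains is a coincidence. The breaks were short, with medians of 532 bp in replicate 1 and 612 bp in replicate 2, and together made up 4.07% and 5.46% of the domain bases. Of the breaks of replicate 1, 419 (40.5%) overlapped a break of replicate 2 by 1 bp or more, and 524 (50.7%) lay inside an unbroken cluster of replicate 2. Of those of replicate 2, 421 (34.6%) overlapped a break of replicate 1 and 743 (61.1%) lay inside one of its clusters. Longer breaks were shared more often. Under 250 bp the overlapping share was 29.9% in replicate 1 and 17.3% in replicate 2, and at 2 kb or more it was 66.7% and 59.3%. A longer break meets the rule of 1 bp more easily. With a reciprocal overlap of at least 50% the shares over all breaks were 8.80% and 7.48%.

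The outer ends of the domains lay within 1 kb of each other in most cases. The outermost cluster of replicate 1 ended a median of 126.5 bp inside the end of the domain, and that of replicate 2 a median of 313.5 bp inside. Of the 2068 ends, 1216 (58.8%) differed by at most 500 bp between the replicates and 1509 (73.0%) by at most 1 kb. Replicate 1 reached further out at 1310 ends and replicate 2 at 755. With each domain cut into 10 equal parts, mean coverage was lowest in the outer parts, at 75.9% and 76.0% for replicate 1 and 65.1% and 65.9% for replicate 2. The inner parts ranged from 90.9% to 94.5% for replicate 1 and from 86.6% to 92.7% for replicate 2.

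**Figure D4:**
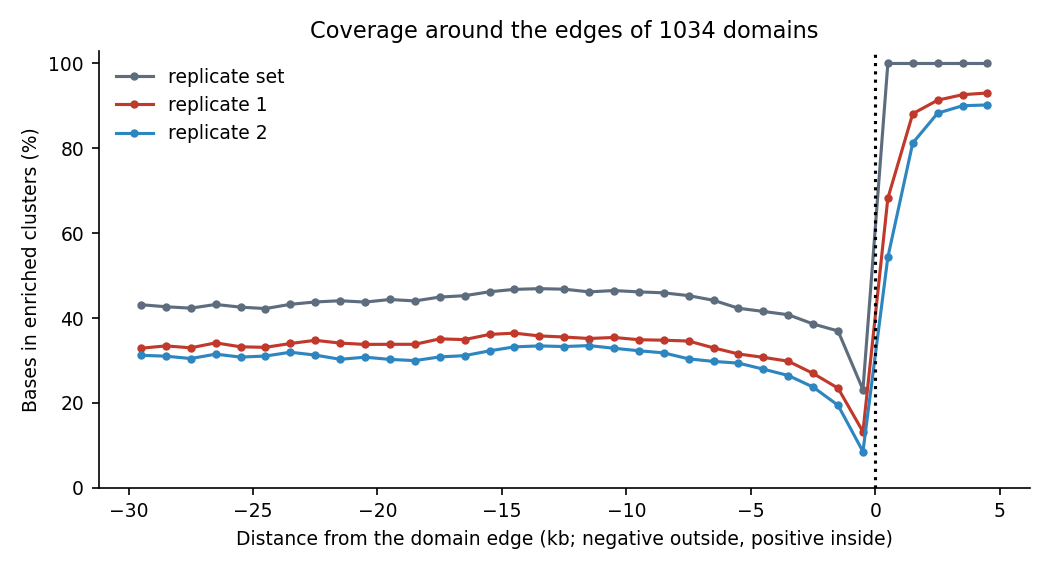
Share of bases (%) inside enriched clusters in steps of 1 kb from the edge of the 1034 domains, outside (negative) and inside (positive), in the replicate set, replicate 1 and replicate 2. In the first 1 kb outside, coverage is 23.1%, 13.2% and 8.54%; in the first 1 kb inside, it is 100%, 68.2% and 54.3%.

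Coverage was low just outside the domains, as it was outside narrower clusters, and rose further out. Clusters covered 13.2% of the first 1 kb outside in replicate 1 and 8.54% in replicate 2, less than their averages over the 5 large arms, 27.0% and 24.8%. A domain ends where the call ends, so a low value next to it is partly fixed by construction. Around clusters of 5 to 10 kb the first 1 kb had 11.6% and 7.42%. At 9 to 10 kb from the edge, coverage was 34.9% in replicate 1 and 32.3% in replicate 2, above the averages of the arms, and at 29 to 30 kb it was 32.9% and 31.2%. Around the clusters of 5 to 10 kb it was 32.4% and 28.9% at 9 to 10 kb.

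The domains had close neighbours. In the set the nearest cluster of any width lay a median of 721 bp away, and 566 domains (54.7%) had one within 1 kb. For clusters of 5 to 10 kb the median was 727 bp and 55.2% had one within 1 kb. For the 5944 clusters under 5 kb it was 1165 bp and 46.8%. The median was 379 bp for the 75 domains of 40 kb or more, 978 bp at 20 to 40 kb and 715 bp at 10 to 20 kb. The cluster next to a domain was itself short, with a median width of 3312 bp and a median score of 0.461, and in 20.3% of the flanks it was another domain. For clusters of 5 to 10 kb the next cluster was a domain in 15.8% of the flanks, and for those under 5 kb in 10.9%. Joining clusters under 500 bp apart moved the nearest cluster to a median of 2230 bp, since the closest neighbours were merged.

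The gaps of the set next to a domain were seldom closed in the replicates, the shortest ones most often. Of 1858 such gaps, 50 lay inside a cluster of replicate 1, 18 inside a cluster of replicate 2 and 0 inside clusters of both. Over all 8095 gaps of the set, which include these, the numbers were 136, 52 and 1. The 1 inside clusters of both fell in none of the length classes counted, so it need not be a true gap. No gap of 2 kb or more was spanned, neither the 109 between 2 domains nor the 956 between a domain and a narrower cluster. Under 100 bp, 21 of 29 and 84 of 120 were spanned in neither replicate. Among the 84 gaps under 1 kb between 2 domains, 74 were spanned in neither replicate. The closest pairs of domains were separated by only 3 or 5 bp. They were on 2R, where 6629144 to 6671078 (41.9 kb) was followed by 6671082 to 6689326 (18.2 kb), on 3L (2852180 to 2868540 and 2868546 to 2886170) and on 3R (6839418 to 6851296 and 6851302 to 6872772). The scores of the pair on 2R were 0.992 and 0.770, those on 3L 0.988 and 1.04, and those on 3R 0.519 and 0.640. On 3L, 1 cluster of replicate 2 of 30248 bp ran across the gap.

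Domains were also spaced unevenly along the chromosomes. The nearest other domain lay a median of 16667 bp away, while 10% of the domains had one within 333.4 bp and 97 (9.38%) had none within 100 kb. In the lists of replicates 1 and 2, which hold fewer broad clusters, the median was 21864 and 28157 bp. The median in the set was 19003 bp at 10 to 20 kb, 14811 bp at 20 to 40 kb and 9507 bp at 40 kb or more. When domains under 10 kb apart were grouped, 400 domains (38.7%) fell into 176 groups, among them 144 pairs and 21 triples. Of the clusters of 5 to 10 kb, 35.6% had a domain within 10 kb and 12.1% had none within 100 kb. The group of most domains was on the X from 4979286 to 5109966, with 7 domains in 130.7 kb, 90.4% of which was domain. Its scores in the set ran from 0.531 to 0.983, and the replicates covered 77.4% and 77.9% of it. The group of longest span was on 3L from 11225498 to 11444254, with 5 domains in 218.8 kb, of which replicate 1 covered 93.3% and replicate 2 78.9%.

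At the other extreme, the domain on the X from 20714510 to 20734404 (19.9 kb) lay 330767 bp from the next one. It had a score of 0.626 and was divided into 6 clusters in each replicate. On 3L, 21375544 to 21397104 lay 289313 bp from its nearest, and on 3R, 12878912 to 12895282 lay 286571 bp away. The latter had a score of 1.07, and the replicates covered 99.5% and 95.9% of it. The longest stretches without a domain reached the centromere-side end of the sequence on the X, 2L, 2R and 3L and measured 1268, 1756, 1598 and 1706 kb. On 3R the longest was inside the arm, from 2422401 to 3321861 (899 kb). It held 17 narrower clusters in the set, the widest of 7313 bp, and no replicate cluster of 10 kb or more lay wholly inside it, although 1 in replicate 1 overlapped it.

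The part next to the centromere held few domains on 4 of the 5 large arms. In the centromere-proximal 10% of the X there were 2.23 domains per Mb in the set, against 8.62 in the rest of the arm. On 2L these values were 3.91 and 8.64, on 2R 2.36 and 10.4, and on 3L 3.67 and 8.60. The same order was found in each replicate list, for example 0.892 against 5.85 on the X in replicate 1 and 2.23 against 5.30 in replicate 2. On 3R the proximal part had 9.32 per Mb and the rest 9.40 in the set. The replicates gave 8.24 against 6.65 and 6.45 against 5.81 there.

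The X, which males carry in 1 dosage-compensated copy, was covered less by broad clusters than each of the 4 large autosomal arms. Narrower clusters covered more of the X than of those arms pooled. In the set the X also exceeded each single arm in this, but in the replicate lists it did not exceed 2R. In the replicate lists, broad clusters covered 8.93% ± 0.363 of the X and 11.6% ± 1.67 of the autosomal arms (SD, n = 2). Both values come from the same list, and the difference, X minus autosomal arms, was -3.61 percentage points in replicate 1 and -1.77 in replicate 2. In replicate 1 the X had 9.19%, below the autosomal arm of lowest value (2L, 11.5%), and in replicate 2 it had 8.67%, a little below the 9.03% of 2L. Narrower clusters covered 15.7% ± 0.168 of the X and 14.6% ± 0.157 of the autosomal arms together. In the replicate lists the X was not the highest arm. These clusters covered 16.2% of 2R and 15.6% of the X in replicate 1, and 15.9% and 15.8% in replicate 2. In the set, domains covered 15.4% of the X and 18.7% of the autosomal arms, and narrower clusters 19.3% and 16.6%. For narrower clusters the X was the highest large arm of the set, followed by 2L with 17.1%. The X had 7.98 domains per Mb, against 8.82. In replicate 2 the X had 4.99 broad clusters per Mb and 2L had 4.95. Domains of 40 kb or more were 8 of 179 on the X (4.47%), 67 of 852 on the autosomal arms (7.86%) and 23 of 199 on 3L (11.6%). In the replicate lists, broad clusters of that width on the X numbered 2 of 120 and 3 of 112. The sexes were not analysed apart, and no test between samples was run, since both ChIP libraries form 1 group.

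**Figure D5:**
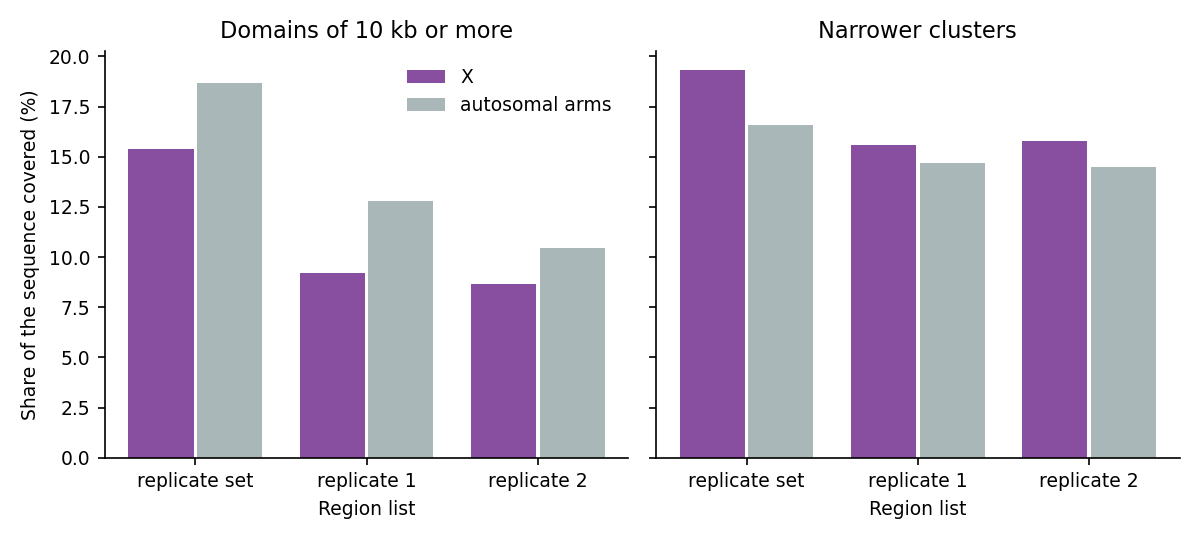
Share of the X (purple) and of the 4 autosomal arms together (grey) covered by domains or clusters of 10 kb or more (left) and by narrower clusters (right), as bars for each of the 3 lists. Broad regions cover less of the X than of the autosomal arms in each list, and narrower clusters cover more of the X than of the pooled arms, though 2R alone lies above the X in both replicates.

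Scores were higher on the X than on the autosomal arms in each width class, and also in narrower clusters. The median in the set was 0.871 on the X and 0.723 on the autosomal arms at 10 to 20 kb, 1.04 and 0.838 at 20 to 40 kb, and 1.06 and 0.938 at 40 kb or more, the last from 8 domains on the X. At 10 to 20 kb the broad clusters of the X had a median of 1.08 against 0.929 in replicate 1 and 1.08 against 0.869 in replicate 2. Clusters of 5 to 10 kb had 0.685 on the X against 0.568 in the set, 0.896 against 0.775 in replicate 1 and 0.904 against 0.733 in replicate 2.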

How the data were processed

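The data are 3 region lists on FlyBase release 5, per the file headers. They hold regions marked by the authors as enriched or depleted, each with a score deposited by the authors. The submitters' processing notes list Bowtie 0.12.7 but give it no role. Not given in the sources used here are the region caller, its thresholds, the depth and how the replicate set was made. No counting interval was computed. Depleted regions were left out of the domains.

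Computation used pandas 2.3.3, numpy 2.4.6 and scipy 1.17.1 under Python 3.11.15, and plots matplotlib 3.10.9. Overlap meant at least 1 bp, and distances run from edge to edge. Counting of pieces, coverage and breaks was tested on simulated lists. SDs are over the 2 replicate lists and may be technical. Regions named in the text were taken by rank (width, score, division, coverage, spacing, nearness to 10 kb), while broad replicate clusters without a domain, grouped domains and domain-free stretches were named after their values were seen. The domains and lists were chosen with earlier results of these data known. Alternatives for width limit, joining, overlap, score, sequences and replicates were tried.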

Additional observations from a re-analysis of the deposited data

How the results depend on the processing

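Of 63 alternative values for 14 results, 38 stayed within the spread of the replicates or, for counts, within 1.5 times, and 25 moved. Counts, shares, distances and scores have no direction that could change. The ratio of X to autosomal arms has one, and it did not reverse. Joining clusters under 500 bp apart raised the share of covered bases in domains from 51.1% to 61.4%, the share of whole domains from 38.9% to 53.8% in replicate 1 and from 28.3% to 39.1% in replicate 2, and the distance to the nearest cluster from 721 to 2230 bp, as merging removes the shortest gaps. Clusters at or above the median score alone put 62.8% of covered bases in domains and lowered median coverage in replicate 2 from 88.8% to 84.5%. Breaks shared between replicates fell from 40.5% to 8.80% (replicate 1) and from 34.6% to 7.48% (replicate 2) by reciprocal overlap of 50%. With breaks under 500 bp left out of both replicates, the share in replicate 2 was 29.1%. This setting also removes the short breaks that a long one could overlap, so it does not show that long breaks were shared less. A minimum of 12 kb moved the nearest domain from 16667 to 22369 bp, with fewer domains. The ratio of X to autosomal arms, 0.905 in domains per Mb, was 0.825 in bases but 0.950 with a minimum width of either 8 or 12 kb.

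On single replicate lists the number of domains was 646 to 758 (1034 in the set; 646 in replicate 2 is under it by more than 1.5 times), their share of covered bases 40.5% to 44.7%, the nearest cluster 1088 to 1132 bp, the nearest domain 21864 to 28157 bp and the X ratio 0.810 to 0.909. Median scores by class were 0.907 to 0.954, 0.967 to 1.07 and 1.04 to 1.15. No paired analysis was possible because only 1 group, the ChIP libraries, has region lists. Apart from joining and the width limit, what caused these changes was not examined (the cause was not tested). Depth is unknown, so breaks in 1 replicate cannot be called absent signal.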

Other observations

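The 18 regions that the set marks as depleted all lay outside the domains. The nearest was on 2R from 12117112 to 12118746, 7575 bp from a domain. Enriched and depleted regions are opposite calls of the same list, so their lying apart is partly fixed by construction.

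In the set, 100% of the cluster starts are even numbers, against 51.1% in replicate 1 and 49.8% in replicate 2. Over all 8095 gaps between consecutive clusters of the set, 136 lay inside a cluster of replicate 1, 52 inside a cluster of replicate 2 and 1 inside clusters of both. The last fell in none of the length classes counted and need not be a true gap.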
